A study of Mus musculus with 24 samples.

Results

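R377C replaces an arginine by a cysteine in the DNA-binding domain of CTCF, in a linker between zinc fingers. The comparison takes the 2 libraries of mouse embryonic stem cells that carry the R377C transgene against the 2 that carry the wild-type (WT) transgene, chosen by their column names, which makes 4 of the 24 libraries of the series. All groups derive from E14Tg2a, an embryonic stem cell line of the 129/Ola strain, whose own CTCF carries an auxin-inducible degron. They were grown without feeder cells in serum with leukemia inhibitory factor, the GSK3 inhibitor CHIR99021 and the MEK inhibitor PD0325901. The R377C ID group received 500 µM IAA (indole-3-acetic acid, the auxin that triggers loss of the tagged CTCF) and 1 µg/ml doxycycline, which switches on the mutant Ctcf transgene, for 2 days. The other 8 mutant groups (R339Q, R342C, S354F, K365T, R377H, Q418R, R448Q and H455R ID) had the same treatment with another substitution. The WT ID group had it with the wild-type transgene. The WT IAA group received IAA without doxycycline, so that no transgene was switched on, and the WT untreated group received neither. Each group has 2 libraries of total RNA. Each substitution is in a cell line of its own, so in every comparison of R377C with WT the substitution and the line cannot be told apart. Whether the 2 libraries of a group came from separate cultures is not stated, and p-values describe the spread between these libraries, which may be technical.

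CTCF is a DNA-binding protein with a row of zinc fingers, several of which read the bases of its motif. Between neighbouring fingers run short conserved linkers that hold the fingers in place along the DNA. CTCF bound in the right orientation stops the cohesin complex, which extrudes chromatin loops, and so sets loop anchors and domain borders. Embryonic stem cells are a common system for its acute depletion, and imprinted genes and protocadherin clusters are well-known loci at which it acts. The position of the substitution is shown in the reference coding sequence of Ctcf, with the codon of the substituted arginine in capitals. It lies in exon 6 of transcript ENSMUST00000005841 at chr8:105670273-105670275 (mm10, plus strand), and the stretch of 93 coding bases, codons 362 to 392, runs from 105666790 to 105670320 with an intron inside.
Ctcf codons 362 to 392: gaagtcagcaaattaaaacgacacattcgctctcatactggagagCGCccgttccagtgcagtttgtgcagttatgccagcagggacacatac
The capitals are the arginine codon of the reference. The base change made in the transgene is not given in the sources used here.

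Ctcf RNA was measured at 11703 and 11280.3 normalized counts in R377C ID, against 9973 and 10418 in WT ID. Normalized counts here are reads per gene after division by the size factor of each library. The R377C libraries are both higher, yet the difference, 0.17 ± 0.06 on the log2 scale (± standard error, SE), missed the threshold (limma, adjusted p = 0.0978). Ctcf lies on chromosome 8, whose tested genes had a median of 0.11 in the same comparison. The part of that shift in the Ctcf difference was not tested. In WT IAA, with no transgene switched on, Ctcf stood at 9248 and 9112, and R377C ID was higher by 0.32 ± 0.06 (adjusted p = 0.000774). The reads of the endogenous gene and of the transgene fall in 1 value, so these levels do not check the substitution. The R377C libraries hold 64.7 and 40.9 M reads on genes, against 57.5 and 42.9 M in WT ID and 27.8 to 77.1 M over all 24. Mitochondrially encoded RNA made up 2.91% and 2.66% of the R377C reads, against 1.62% and 1.92% in WT ID, within 1.22% to 3.38% over the series.

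Embryonic stem cell markers were high in both groups. Pou5f1, a core pluripotency factor, stood at 19165 and 20151 in R377C ID, against 19161 and 19246 in WT ID (0.03 on the log2 scale, limma adjusted p = 0.880). Nanog, another core factor, was at 43452 and 46200.4 in R377C ID, against 35872 and 36562 in WT ID. The call for Nanog (0.31 ± 0.08, limma adjusted p = 0.0262) ended without any 1 of the 4 libraries, at adjusted p 0.0620 to 0.212, and in TPM at 0.0694. Of the 24 core and naive pluripotency genes, 2 were called higher and 2 lower, with a median of 0.04, and with 1 library left out 0 or 1 were called in each direction. Of the markers taken as defining other tissues, Elf5 (trophectoderm), Col1a2, Col3a1 and Dcn (fibroblasts) and Ptprc (blood cells) had at most 6.14 normalized counts in any of the 4 libraries, and Dcn was at 0 in both R377C libraries. Others were measured well above that. Gata4 (primitive endoderm) had 427 and 488 in R377C ID, against 252 and 249.7 in WT ID, and Sox1 (neural) had 325 and 409, against 418.4 and 316. Further members of the same lists were present too. In the trophectoderm list, Krt8 had 751 and 542 in R377C ID, against 1196 and 1062 in WT ID. In the fibroblast list, Col1a1 had 228 and 246, against 138 and 102. In the blood list, Cd68 had 881 and 988, against 1338 and 1236. The summed level was 135752 and 130477 in R377C ID, against 127235 and 125611 in WT ID for the fibroblast list, and 1797 and 1856 in R377C ID, against 2005 and 2062 in WT ID for the blood list. The part of other cell types in the results was not tested.

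Genes were called at an adjusted p under 0.05 in a limma fit of log2(normalized count + 1) over 18713 genes and 22 libraries. Fold changes on that scale understate the change of genes with low counts. R377C ID differed from WT ID in 1514 genes (8.09% of those tested), 873 higher (4.67%) and 641 lower (3.43%). The increases were the larger changes, with a median of 0.85 on the log2 scale and 318 at 2-fold or more, while the decreases had a median of -0.47 and 98 at 2-fold or more. In all 1514 the 2 R377C libraries lay wholly above or below the 2 WT ID libraries, which was also so for 53.1% of all tested genes. The count depends on every library. It was 905 (546 higher, 359 lower) without R377C ID replicate 1, 582 (334 and 248) without R377C ID replicate 2, 720 (486 and 234) without WT ID replicate 1 and 729 (431 and 298) without WT ID replicate 2.

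The largest feature of the difference by position was on chromosome 17. From Clip4 (chr17:71768473-71864273, mm10) to the last gene, a stretch of 23.1 Mb that ends at 94878321, 91 genes were tested. Of these, 77 were called higher in R377C ID than in WT ID and 0 lower, and 88 of 91 had a value above 0. Their median was 0.92 on the log2 scale, and it was 0.92 in each R377C library taken alone. On the rest of the chromosome, 742 genes had a median of -0.02, with 25 called higher and 24 lower. The stretch held 0.486% of the genes tested and 8.82% of those called higher. It was delimited after the values were seen, so the counts describe it and are no test of it.

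Single genes of the stretch show the step. Clip4, a microtubule-binding linker protein, had 411 and 466 normalized counts in R377C ID, against 149 and 158 in WT ID (1.5 ± 0.14, limma adjusted p = 8.92e-07). Spast, the microtubule-severing ATPase spastin (chr17:74338987-74391115), had 2857 and 2605, against 1294 and 1309 (1.07 ± 0.07, adjusted p = 3.15e-08). Eml4, a microtubule-binding protein (chr17:83350931-83480361), had 6376 and 6208, against 3221 and 3171 (0.98 ± 0.06, adjusted p = 1.27e-08). In each of them the R377C libraries lie close together and far above the WT ID pair. Msh6, a DNA mismatch repair gene (chr17:87975062-87990892), had 29148 and 30806 in R377C ID, against 14981 and 15319 in WT ID (0.98 ± 0.10, adjusted p = 1.96e-06). Sos1, the Ras exchange factor, was higher by 0.97 ± 0.07, and Calm2, a calmodulin gene, by 0.77 ± 0.07. Six3, a forebrain homeobox gene, had only 24.9 and 26.6 counts in R377C ID, against 5.85 and 4.01 in WT ID. Epas1, the hypoxia factor HIF-2α, was called at 0.54 ± 0.13 (adjusted p = 0.0140), but not without R377C ID replicate 1 (0.146) or WT ID replicate 2 (0.262).

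The same level was found in other mutant lines. In deposited TPM, a measure scaled by gene length and library total with WT untreated in a table of its own, the median of the 91 genes over the WT ID mean was 0.91 and 0.90 in the R377C libraries and 0.86 to 0.97 in the 14 libraries of 7 other mutants. It was 0.04 and 0.00 in H455R ID, 0.04 and -0.01 in WT IAA, and 0.00 and 0.05 in WT untreated. H455R was split: over the 17 genes from Clip4 to Crim1 its libraries were at 0.99 and 0.94, with R377C at 1.00 and 1.00, while over the 74 genes from Fez2 to the end H455R was at -0.01 and -0.04, with R377C at 0.90 and 0.89. Against the mean of the other 8 mutants, 0 of the 91 genes were called in limma (12 at an unadjusted p under 0.05; 0 in edgeR and 1 in DESeq2), and their median was 0.05. Against WT IAA, 75 were called higher and 0 lower. The shift was carried by R377C and 7 other mutant lines in full, by H455R in its first part, and by no group of the WT line. Elsewhere, the largest median of 100 neighbouring genes was 0.19 in size, and the largest chromosome median was 0.11, on chromosome 8. Of 951 genes tested there, 75 (7.89%) were called higher, beside 4.67% of all genes, and 11 lower. On chromosome 8, 688 genes had a value above 0, and the median was 0.07 and 0.15 in the R377C libraries. Its lowest median of 100 neighbouring genes was 0.06, so this small shift ran along the chromosome. DNA was not measured in these libraries, and the number of copies of the chromosome 17 stretch or of chromosome 8 was not tested. With the genes of the chromosome 17 stretch left out of the fit, 1402 genes were called (773 higher, 629 lower).

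**Figure D1:**
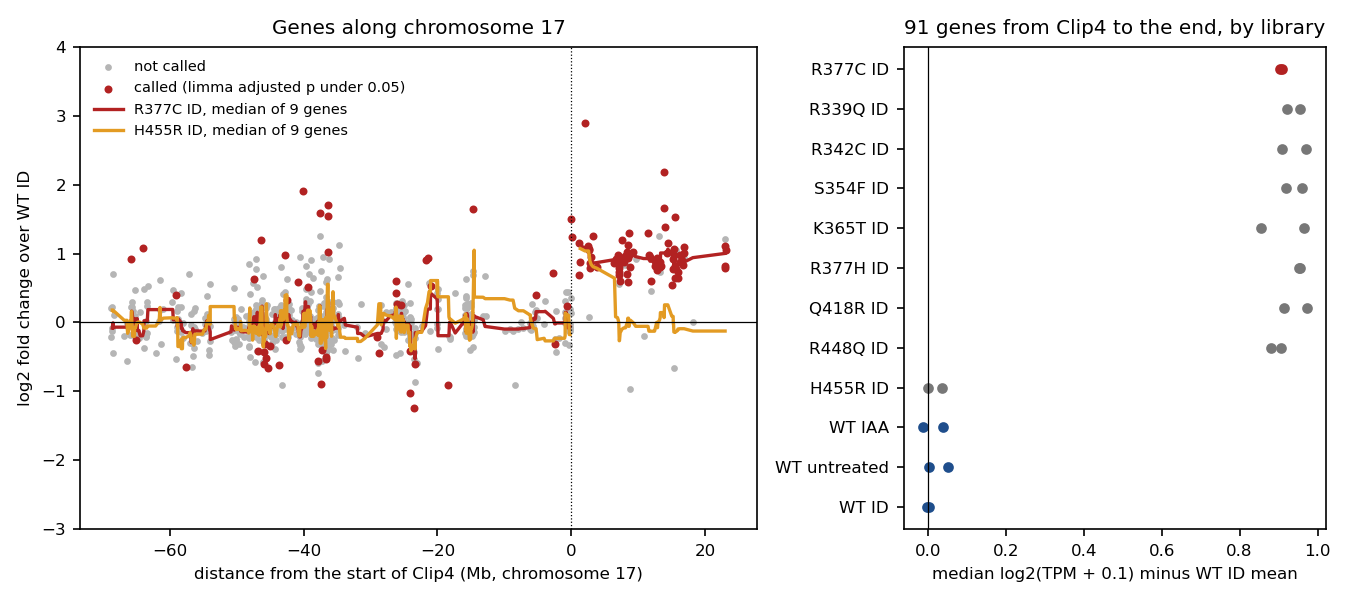
Left, log2 fold change of R377C ID over WT ID for each tested gene (points, red where called) by distance in Mb from the start of Clip4 on chromosome 17, with running medians of 9 genes for R377C ID and H455R ID. Right, median over the 91 distal genes of log2(TPM + 0.1) minus the WT ID mean, 1 point per library; the R377C ID libraries sit at 0.91 and 0.90, with 7 other mutants at 0.86 to 0.97 and the WT groups near 0.

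Single genes were the 15 with the largest rise and the 15 with the largest fall that met a set of conditions. Each had to be called, average 50 or more normalized counts and have a proper gene name. Its R377C ID and WT ID libraries also had to show no overlap. None of the 30 lies in the distal stretch of chromosome 17. Of the 30, 9 overlap a gene on the opposite strand, among them Brdt, Efhc2, Evc, Hhip and Igsf10. The strand setting of the authors' counting is not given, so their values may include reads of the partner.

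The largest increase was in Fbln2, the extracellular matrix protein fibulin-2 (chr6:91212455-91272540). It had 187 and 215 normalized counts in R377C ID, against 35.1 and 33.1 in WT ID, a difference of 2.52 ± 0.30 on the log2 scale (limma, adjusted p = 2.79e-05). The immunoglobulin superfamily gene Igsf10 and the protease gene Mmp2 rose as well. Igsf10 had 117 and 138 in R377C ID, against 18.3 and 31.1 in WT ID (2.36 ± 0.30). Mmp2, a gelatin-degrading metalloprotease, had 141 and 212, against 46.1 and 51.1 (1.81 ± 0.23, adjusted p = 4.58e-05). Both groups are well apart in each of the 3 genes.

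Of the 15 genes, Brdt is in the germline and meiosis list. Brdt, a bromodomain protein of male germ cells (chr5:107331159-107387058), had 466 and 461 normalized counts in R377C ID, against 116 and 98.3 in WT ID (2.11 ± 0.14, limma adjusted p = 3.15e-08). H2ac1 had 157 and 229, against 43.9 and 45.1 (2.07 ± 0.24, adjusted p = 2.24e-05), and its neighbour H2bc1 had 85.1 and 107, against 25.6 and 21.1 (2.00 ± 0.28). Both encode testis-specific core histones and lie side by side on chromosome 13. Rbm44, an RNA-binding protein of germ cell bridges, had 253 and 314 in R377C ID, against 87.0 and 89.2 in WT ID (1.67 ± 0.17). Tuba3b, an alpha tubulin, had 105 and 132, against 34.4 and 23.1 (2.02 ± 0.34, adjusted p = 0.000786). Histone and tubulin genes have near-identical relatives, and the split of shared reads among them is uncertain.

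The other increases among the 15 were in genes of several kinds. Hhip, which binds hedgehog ligands at the cell surface, had 235 and 230.1 normalized counts in R377C ID, against 71.0 and 47.1 in WT ID (1.99 ± 0.27, limma adjusted p = 8.72e-05). Evc2, a protein of the ciliary base that takes part in hedgehog signalling, had 530.3 and 585, against 120.0 and 239.6 (1.71 ± 0.24, adjusted p = 0.000147). Its head-to-head neighbour Evc had 181 and 242, against 35.8 and 103 (1.76 ± 0.35). The call for Evc ended without R377C ID replicate 2 (adjusted p = 0.0599) and without WT ID replicate 1 (0.0956). The WT ID libraries differ from each other in both genes more than the R377C libraries do. Trpa1, an irritant-gated cation channel, had 706 and 667 in R377C ID, against 208 and 182 in WT ID (1.81 ± 0.19, adjusted p = 5.46e-06). Mc5r, a melanocortin receptor, had 102 and 66.5, against 26.3 and 18, and its call (1.87 ± 0.46, adjusted p = 0.0149) ended without R377C ID replicate 1 (0.135) and without WT ID replicate 2 (0.143). H2-Q7, a class Ib gene of the major histocompatibility complex, had 143 and 187, against 43.2 and 56.2 (1.71 ± 0.25, adjusted p = 0.00018), and its reads may be shared with its close relatives. Peg10, the remaining gene of the 15, is described with the imprinted genes.

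The decreases were led by the Xlr genes of the X chromosome, described as a family with the gene lists. Outside that family the largest decrease was in Efhc2, an EF-hand protein of ciliary microtubules (chrX:17132049-17319368). It had 109 and 121 normalized counts in R377C ID, against 676 and 874 in WT ID (-2.73 ± 0.21, limma adjusted p = 9.68e-08). In TPM, Efhc2 was at 3.29 and 3.53 in R377C ID, against 18.9 and 23.7 in WT IAA and 19 and 24.5 in WT untreated. All 3 groups of the WT line lie well above R377C.

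Aass and Akr1c14 are enzymes of metabolism. Aass, which begins lysine breakdown, had 306 and 393 normalized counts in R377C ID, against 1137 and 1061 in WT ID (-1.66 ± 0.19, limma adjusted p = 1.24e-05). Akr1c14, a hydroxysteroid dehydrogenase, had 315 and 282, against 1100.2 and 662 (-1.51 ± 0.27, adjusted p = 0.00117). The WT ID pair of Akr1c14 is spread widely. Serpina3m, of a protease inhibitor family with close relatives, had 62.0 and 39.9 in R377C ID, against 280.2 and 189.5 in WT ID (-2.19 ± 0.32). Arhgef38, a guanine nucleotide exchange factor, had 461 and 438, against 1371 and 1222 (-1.52 ± 0.22, adjusted p = 0.000192).

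The remaining decreases were of genes with few counts. Pkhd1, the gene of the ciliary protein fibrocystin, had 44.1 and 23.5 normalized counts in R377C ID, against 163 and 153 in WT ID, and its call (-2.26 ± 0.43, limma adjusted p = 0.00208) ended without R377C ID replicate 2 (0.0578). Kcna2, a voltage-gated potassium channel, had 53.1 and 53.2, against 219 and 151. Its call (-1.76 ± 0.41, adjusted p = 0.0109) ended without R377C ID replicate 1 (0.0610), R377C ID replicate 2 (0.0767) and WT ID replicate 1 (0.133). Nckap5, the olfactory receptor gene Olfr459 and the testis-expressed gene Tex26 had 26.6 to 54.2 counts in R377C ID, against 113 to 162 in WT ID, with differences of -2.02 ± 0.41, -1.78 ± 0.30 and -1.56 ± 0.28.

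**Figure D2:**
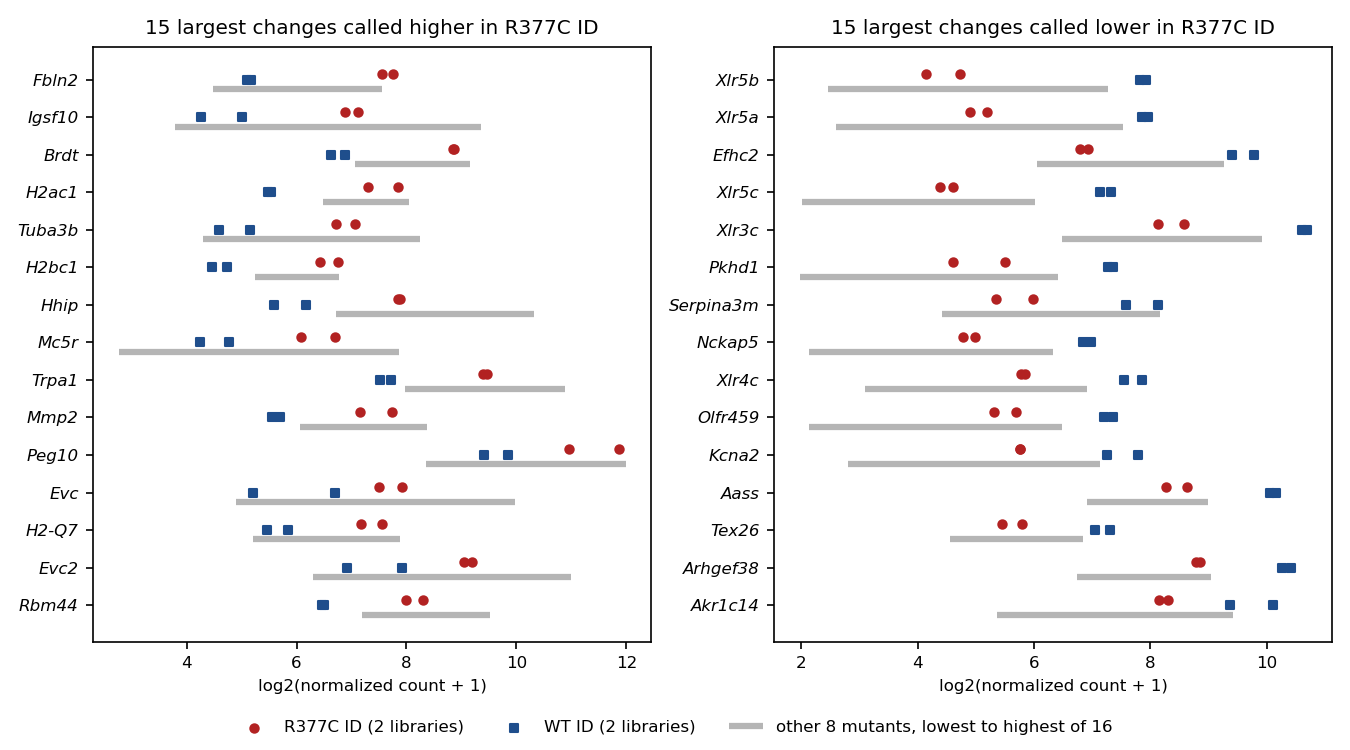
Values of the 15 largest increases (left) and 15 largest decreases (right) as log2(normalized count + 1), 1 point per library for R377C ID (red circles) and WT ID (blue squares), with a grey bar from the lowest to the highest of the 16 libraries of the other 8 mutants. R377C ID and WT ID do not overlap in any row, which the choice of these genes required. For Brdt the bar runs from 134 to 566 counts and holds both R377C values, 466 and 461.

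Gene lists were read by the number of measured members called, beside 4.67% called higher, 3.43% called lower and a median of -0.00 over all tested genes. The lists were chosen with earlier results of these data known. Of 34 lists, 5 had no called member: nuclear oxidative phosphorylation (44 measured), the integrated stress response (34), clustered protocadherins (16), small structural RNA (10) and the aryl hydrocarbon receptor list (9). At an unadjusted p under 0.05 limma had 4, 4, 4, 0 and 1 genes in these 5 lists, and neither edgeR nor DESeq2 called any.

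All 9 Xlr3, Xlr4 and Xlr5 genes were called lower in R377C ID, with a median of -1.89 on the log2 scale. They are X-linked relatives of the synaptonemal complex protein Sycp3, some of them imprinted, and they lie together between 73074345 and 73292976 on chromosome X. Xlr5b had 16.6 and 25.6 normalized counts in R377C ID, against 243 and 225 in WT ID (-3.44 ± 0.36, limma adjusted p = 4.71e-06). Xlr3c had 279.5 and 379, against 1644 and 1561 (-2.29 ± 0.25, adjusted p = 1.08e-05). Xlr4b had 135 and 169.8, against 422 and 380.0 (-1.40 ± 0.23, adjusted p = 0.000727). The smallest decreases, in Xlr3a (-1.09 ± 0.21) and Xlr3b (-1.0 ± 0.20), lost the call without R377C ID replicate 1 (adjusted p = 0.0518 and 0.0529), and Xlr4a (-1.20 ± 0.24) lost it without WT ID replicate 1 (0.0628). The family's copies are near-identical, and Xlr5a spans several of the others in the annotation, so the 9 values may not be separate measurements. In TPM, Xlr5a was at 1.20 and 1.45 in R377C ID, against 10.5 and 9.48 in WT IAA and 10.9 and 10.3 in WT untreated, so R377C stood apart from each group of the WT line. Summed over the family, R377C ID had 2110.2 and 2659 normalized counts and WT ID had 6780.2 and 6254, while the other 16 mutant libraries ran from 704 to 4721.

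Of 34 measured germline and meiosis genes, 13 were called higher and 1 lower, with a median of 0.59. Tex11, an X-linked meiotic recombination gene, had 303 and 376 normalized counts in R377C ID, against 135 and 146 in WT ID (1.26 ± 0.18, limma adjusted p = 0.000139). Stag3, the meiotic cohesin subunit, had 2808 and 3155, against 1887 and 1869 (0.66 ± 0.11, adjusted p = 0.000729). Genes of the piRNA pathway, which silences transposons in germ cells, were among them. Mov10l1, its helicase, had 247 and 421 in R377C ID, against 127 and 144 in WT ID (1.24 ± 0.21, adjusted p = 0.00081), and Tdrkh, a Tudor protein, had 80.6 and 104, against 32.2 and 38.1 (1.36 ± 0.24). Ddx4 (0.78 ± 0.16) and Dazl (0.93 ± 0.23), RNA-binding proteins of germ cells, lost the call without R377C ID replicate 2 (adjusted p = 0.120 and 0.185), and Dazl also without WT ID replicate 2 (0.198). The number called higher was 6 to 13 with 1 library left out, lowest without R377C ID replicate 2. Against the other 8 mutants, 1 member of the list was called higher (0 without either R377C library), and the median was 0.05.

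Imprinted genes, several of which carry CTCF sites at their control regions, were called in both directions, 8 higher and 4 lower of 43, with a median of 0.10. Against the mean of the other 8 mutants, 5 of the 43 were called higher and 3 lower, beside 0.839% and 0.791% of all tested genes. Fewer were called against those mutants when either R377C library was left out. Peg3, a paternally expressed zinc finger gene (chr7:6703892-6730431), had 1313 and 1499 normalized counts in R377C ID, against 3038 and 5036 in WT ID (-1.48 ± 0.19, limma adjusted p = 5.87e-05). Usp29, its neighbour in the same imprinted domain, had 269 and 362, against 589.6 and 626 (-0.96 ± 0.21), and lost the call without R377C ID replicate 1 (0.0969) and without WT ID replicate 2 (0.0594). Impact, a paternally expressed regulator of translation, had 9503 and 8305, against 13533 and 12764 (-0.56 ± 0.08, adjusted p = 0.000103). Others rose. Peg10, a gene derived from a retrotransposon and needed for the placenta (chr6:4747306-4760517), had 3716 and 1990.3 in R377C ID, against 920.2 and 681 in WT ID (1.78 ± 0.29, adjusted p = 0.000611). Sgce, which shares its imprinted promoter region, had 74.8 and 47.0, against 30 and 19 (1.28 ± 0.32), and lost the call without R377C ID replicate 1 (0.181) and without WT ID replicate 2 (0.193). Mest, a paternally expressed hydrolase gene, had 789 and 797, against 407 and 423 (0.93 ± 0.18, adjusted p = 0.00222). With 1 library left out, 3 to 5 imprinted genes were called higher and 2 or 3 lower.

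The 2-cell-like list holds genes of the early embryo that rare embryonic stem cells express, and 5 of its 16 measured members were called higher and 0 lower, with a median of 1.75. Zscan4d, a telomere-linked marker of that state, had 22.4 and 40.9 normalized counts in R377C ID, against 8.05 and 4.01 in WT ID (2.22 ± 0.63, limma adjusted p = 0.0347). All 5 calls ended without at least 1 library, and 0 were left without R377C ID replicate 2. Both groups are low, and the family's near-identical copies make single values uncertain. In WT IAA, Zscan4d was at 39.3 and 25.6, about the R377C level. The summed level of the list was 6225 and 5624 in R377C ID, against 6091 and 6213 in WT ID and 10796 and 11727 in WT IAA. Against WT IAA, 3 of the 16 members were called lower and 0 higher, with a median of -0.55. Over all tested genes 12.0% were called lower in that comparison.

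Lists with fewer called members also held genes with clear changes. Dusp6, the ERK phosphatase that reports ERK activity, had 234 and 249.6 normalized counts in R377C ID, against 551 and 472 in WT ID (-1.07 ± 0.15, limma adjusted p = 0.000106). Etv4, an ERK-induced factor, had 1245 and 1447, against 2244 and 2039 (-0.67 ± 0.12, adjusted p = 0.00102). Of the 23 ERK feedback and immediate early genes, 4 were called lower and 1 higher, with a median of -0.18, in medium that holds a MEK inhibitor. The number lower was 2 without R377C ID replicate 1 and without WT ID replicate 1, and the higher call was lost in 3 of the 4 fits with 1 library left out. The cyclins Ccnd1 (0.68 ± 0.10, adjusted p = 0.000124) and Ccnd2 (1.35 ± 0.22, adjusted p = 0.000605) were the only genes called higher of 34 of the cell cycle list, and 2 were called lower (0 or 1 with 1 library left out). Ccnd2 had 200.2 and 203 in R377C ID, against 80.5 and 76.2 in WT ID. Nkd1, a feedback inhibitor of Wnt signalling, had 317 and 345, against 149 and 122 (1.29 ± 0.17, adjusted p = 6.44e-05), and 3 of 16 Wnt targets were called higher with 0 lower.

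Among markers of other cell types, Gata4, a primitive endoderm factor, had 427 and 488 normalized counts in R377C ID, against 252 and 249.7 in WT ID (0.86 ± 0.14, limma adjusted p = 0.000514). Lamb1, the laminin chain of that layer's basement membrane, was higher by 0.85 ± 0.15 (adjusted p = 0.00148). These were 2 of the 14 measured primitive endoderm genes. Gata6 and Sox17, which define the layer with Gata4, were at 0.27 ± 0.26 and 0.15 ± 0.49 and were not called. The summed level of the list was 62918 and 64051 in R377C ID, against 60709 and 60295 in WT ID, and its part in the other results was not tested. In such bulk RNA, more cells of a type and more RNA per cell cannot be told apart. Of 9 neural genes, 3 were called higher, 1 of them Six3 on distal chromosome 17. Of 9 fibroblast genes, Thy1 and Col1a1 were called higher (1.5 ± 0.27 and 0.99 ± 0.23), with the defining markers Col1a2, Col3a1 and Dcn near or at 0, and Col1a1 lost the call without R377C ID replicate 2 (0.0882) and without WT ID replicate 2 (0.137).

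Interferon and MHC class I genes moved in both directions, 4 higher and 3 lower of 19 (2 or 3 in each direction with 1 library left out). Ddx58, the RNA sensor RIG-I, had 222 and 179 normalized counts in R377C ID, against 388 and 384 in WT ID (-0.95 ± 0.15, limma adjusted p = 0.000471). Tapbp, the peptide-loading protein tapasin, had 2412 and 2154, against 3400.0 and 3288 (-0.55 ± 0.10, adjusted p = 0.000977). Oas1e, of the oligoadenylate synthetase family, had 71.0 and 54.2, against 18.3 and 22.1 (1.58 ± 0.28, adjusted p = 0.00137). Of 32 p53 targets, 6 were called higher and 0 lower, with a median of 0.14. Only Trp53i11 among the 6 (1224 and 1251 in R377C ID, against 748 and 732 in WT ID) kept its call without each library in turn.

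Of 30 genes for loop extrusion and CTCF partners, 1 was called. Pds5b, a cohesin regulator, had 5669 and 5322 normalized counts in R377C ID, against 6962 and 7047 in WT ID (-0.35 ± 0.07, limma adjusted p = 0.00207). Of the 22 heat shock genes, the chaperones Hsph1 (-0.60 ± 0.11, adjusted p = 0.00154) and Hspb1 (-0.55 ± 0.11, adjusted p = 0.00426) were called lower and 0 higher, and Hspb1 lost the call without WT ID replicate 1 (0.0503). Id4, an inhibitor of helix-loop-helix factors, had 542 and 554 in R377C ID, against 979 and 984 in WT ID (-0.84 ± 0.15, adjusted p = 0.00106). The 15 mitochondrially encoded genes had a median of 0.71, and 4 were called higher, but none of the 4 kept its call without each library in turn. The largest of them by count, mt-Co1, had 325855 and 338303, against 178508 and 184981.

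**Figure D3:**
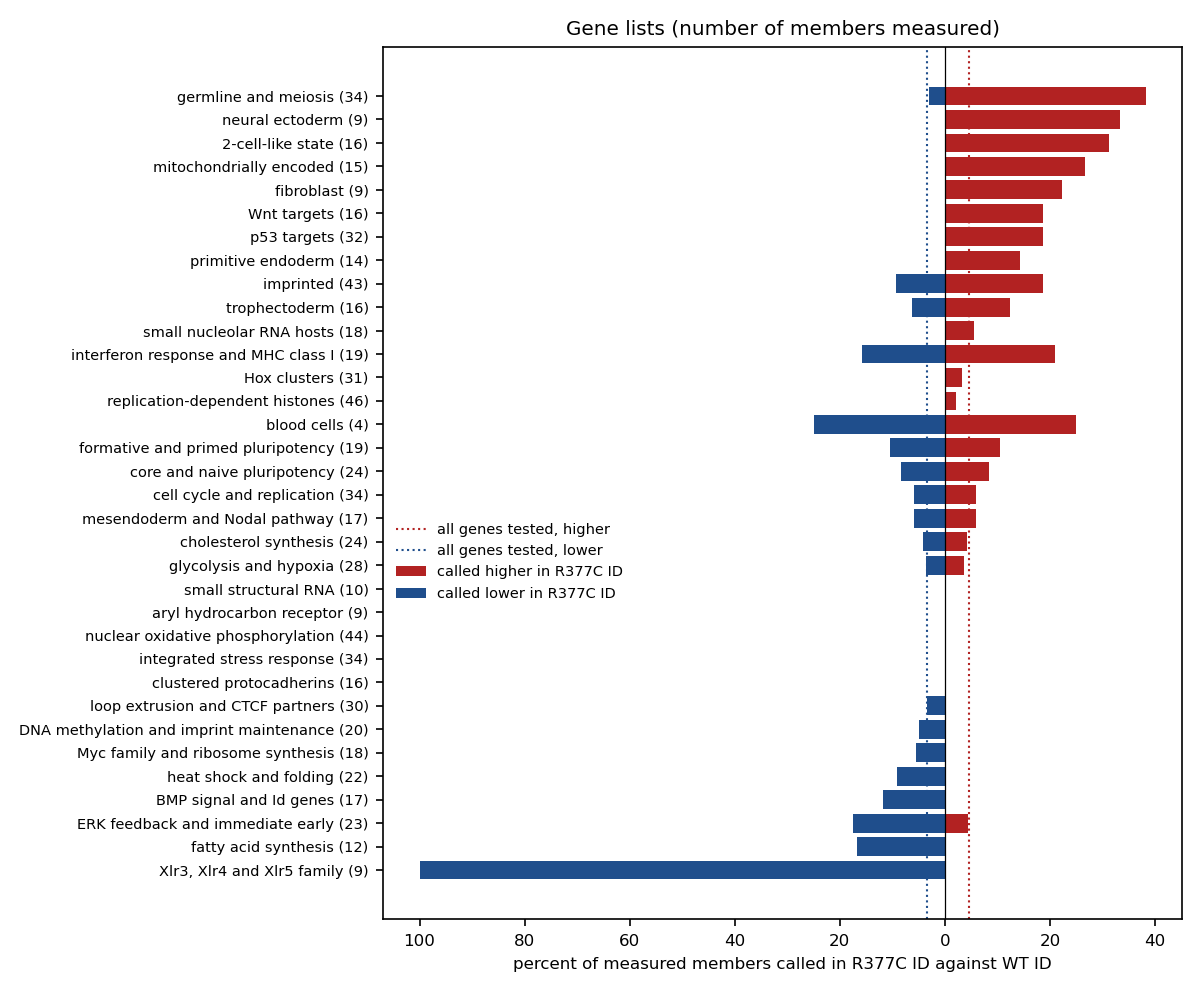
Percent of the measured members of each of the 34 gene lists called higher (red, to the right) or lower (blue, to the left) in R377C ID against WT ID, with dotted lines at 4.67% and 3.43%, the shares over all tested genes. The number measured stands in brackets; the Xlr list reaches 100% on the left (9 of 9), and the germline list 38.2% on the right (13 of 34).

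The comparison with the other 8 mutant lines uses the WT libraries in the pooled spread alone. R377C ID differed from the mean of the other 8 in 305 genes (1.63% of those tested), 157 higher (0.839%) and 148 lower (0.791%). The split leans on the scaling: in TPM 125 were called higher and 16 lower, after quantile normalization 182 and 114, and with edgeR 248 and 142. Without R377C ID replicate 1 the count was 43, and without R377C ID replicate 2 it was 37, so single calls here rest on both libraries. The 873 genes called higher than in WT ID had a median of 0.09 against the other mutants, and the 641 called lower had a median of -0.06. Of the 1514, 88 (5.81%) were called in the same direction in both comparisons, 60 higher and 28 lower, and 10 in opposite directions. Of the 30 genes with the largest changes from WT ID, 4 were called against the other mutants, each only with both R377C libraries: Fbln2 and Brdt higher, Efhc2 lower, and Arhgef38 higher by 0.67 ± 0.17 where it was lower than in WT ID.

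In 11 of the 88 genes (12.5%) both R377C libraries lay outside the range of the 16 other mutant libraries, on the same side, as they did in 63 of all tested genes (0.337%). A call against the other mutants favours such genes, so the higher share is no test. Of the 11, 10 averaged 50 or more counts and had a proper gene name, 9 of them higher, and the 6 with the largest rise and the single one that fell are described. Nnat, the imprinted gene of the membrane protein neuronatin (chr2:157560078-157562522), had 228 and 232 normalized counts in R377C ID, against 22.2 to 181 in the other 8 mutants, with a median of 90.0 (1.56 ± 0.17, limma adjusted p = 0.00011). WT ID had 129 and 98.3. Among the 7 genes described here, Nnat alone kept its call against the other mutants without either R377C library, though its difference from WT ID (1.02 ± 0.22, adjusted p = 0.00671) was not called without R377C ID replicate 2 (0.0625) or WT ID replicate 2 (0.107). WT IAA had 235 and 200.1 normalized counts, about the R377C level.

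The other 6 lost the call against the mutants when either R377C library was left out. Fbln2 had 187 and 215 in R377C ID, against 21.2 to 187 in the other 8 mutants (1.28 ± 0.23, limma adjusted p = 0.00571; 0.0852 without R377C ID replicate 1 and 0.196 without replicate 2). Syt7, a calcium sensor of vesicle fusion, had 221 and 234, against 52.8 to 195 (1.09 ± 0.18, adjusted p = 0.00271; 0.0723 and 0.124). Ret, the receptor tyrosine kinase for GDNF ligands, had 509.8 and 469, against 85.7 to 439.7 (1.01 ± 0.19, adjusted p = 0.00865; 0.174 and 0.137). All 3 stand only just above the highest of the 16. So do Plpp5 and Pear1, given next, and Aff4 stands only just below the lowest. Plpp5, a lipid phosphatase, had 319 and 319, against 96.9 to 306 (0.86 ± 0.13, adjusted p = 0.00175; 0.0603 and 0.0706). Pear1, an endothelial and platelet receptor, had 172 and 205, against 55.3 to 171 (0.81 ± 0.17, adjusted p = 0.0165; 0.124 and 0.340). Aff4, a scaffold of the super elongation complex, was the single decrease, at 12864 and 12509.7, against 13085 to 22648 (-0.30 ± 0.05, adjusted p = 0.00271; 0.0603 and 0.137).

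**Figure D4:**
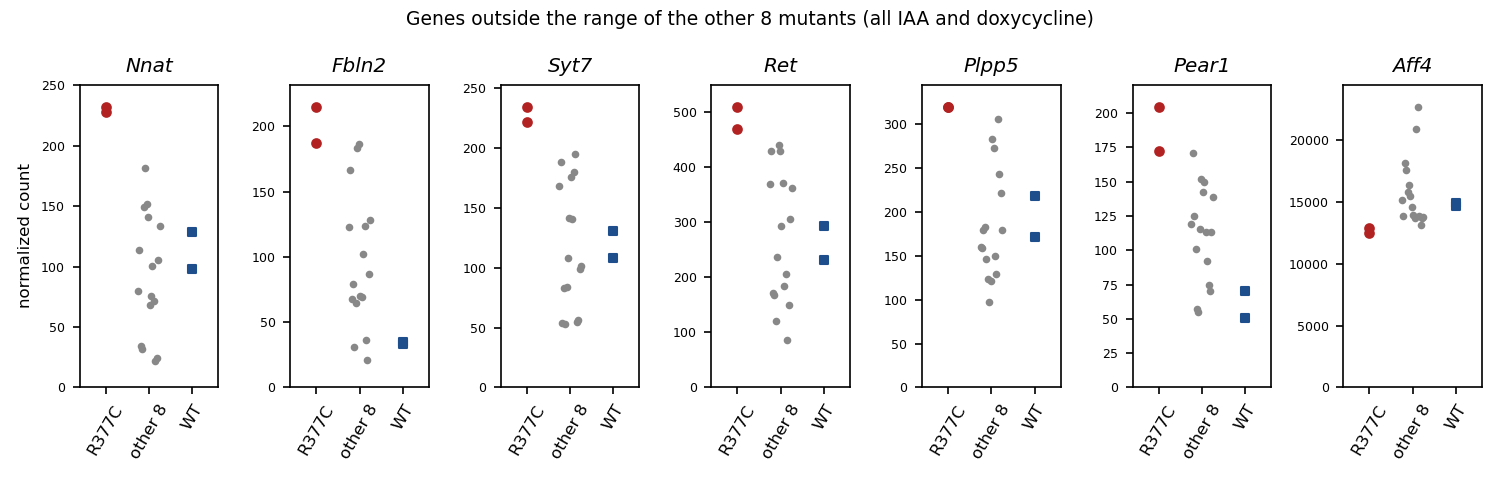
Normalized counts of 7 of the 11 genes called in R377C ID both against the other 8 mutants and against WT ID and lying outside the range of the 16 other mutant libraries, the 6 with the largest rise and the 1 that fell of those with 50 or more counts and a proper name; 1 point per library, R377C ID in red at the left, the other 8 mutants in grey in the middle and WT ID as blue squares at the right, each axis from 0. Nnat reaches 228 and 232 in R377C ID, with 181 as the highest other mutant; Aff4 is the only gene below the grey points.

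R377H replaces the same arginine by histidine, and WT libraries enter the comparison of the 2 lines through the pooled spread alone. R377C ID and R377H ID differed in 3552 genes (19.0% of those tested), 1474 higher (7.88%) and 2078 lower (11.1%) in R377C, but in TPM the split was 2118 higher and 1174 lower, with a median over all genes of 0.11. The count fell to 1856 without R377C ID replicate 1 and to 1862 without R377H ID replicate 2.

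Imprinted genes differed between the 2 substitutions in both directions. Peg10 had 3716 and 1990.3 normalized counts in R377C ID, against 441 and 328 in R377H ID (2.84 ± 0.29 on the log2 scale, limma adjusted p = 1.21e-06). Peg3 had 1313 and 1499 in R377C ID, against 5838 and 6285 in R377H ID (-2.11 ± 0.19). Mest had 789 and 797, against 1373 and 1439 (-0.83 ± 0.18). In all 3 genes the libraries of the 2 lines are far apart, and R377H lies on the far side of WT ID for Peg10 and Peg3. Of the 43 imprinted genes, 11 were called higher and 11 lower in R377C than in R377H. Over all tested genes 7.88% were called higher and 11.1% lower.

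The Hox genes, homeobox regulators of body axis identity, stood higher in R377C than in R377H. In this comparison 7.88% of all tested genes were called higher and 11.1% lower. In TPM 2118 of all tested genes were called higher and 1174 lower. Of 31 measured, 17 were called higher and 0 lower, with a median of 0.73 (16 and 0 in TPM, and 11 to 16 called higher with 1 library left out). Hoxa3 had 253 and 257 normalized counts in R377C ID, against 114 and 128 in R377H ID (1.07 ± 0.20, limma adjusted p = 0.00089), with 408 and 364 in WT ID. Cholesterol synthesis genes had 10 of 24 called higher and 0 lower, with 2 to 6 called higher when 1 library was left out. Clustered protocadherins had 4 of 16 higher and 0 lower, with 2 higher in DESeq2 and 2 to 4 with 1 library left out.

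Of the 30 largest changes from WT ID, Efhc2 was far lower in R377C than in R377H too, at 109 and 121 normalized counts, against 551 and 614 (-2.33 ± 0.21). Rbm44 was also lower, with 253 and 314 in R377C ID and 730.4 and 709 in R377H ID (-1.35 ± 0.17), although it was higher in R377C than in WT ID. Trpa1 was higher, with 706 and 667 in R377C ID, against 343 and 296 in R377H ID (1.11 ± 0.19). Others of the 30 differed as well, among them Serpina3m, which was lower in R377C than in R377H (-2.22 ± 0.32). Nckap5 (2.45 ± 0.41), Olfr459 (2.18 ± 0.30) and Arhgef38 (1.19 ± 0.22) were higher in R377C than in R377H. These last genes were lower in R377C than in WT ID and stood lower still in R377H. Efhc2, Rbm44 and Trpa1 kept these calls without each of the 4 libraries in turn and in TPM. Of all tested genes, 7.88% were called higher and 11.1% lower than in R377H. In TPM the counts over all tested genes were 2118 higher and 1174 lower. Germline and meiosis genes, of which 13 were called higher than in WT ID, had 3 higher and 9 lower than in R377H, with 5 lower in TPM, and 1 to 3 higher and 4 to 8 lower with 1 library left out.

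Set against WT IAA, the cells with CTCF depleted and no transgene switched on, R377C ID differed in 4676 genes (25.0% of those tested), 2427 higher (13.0%) and 2249 lower (12.0%). The groups differ in doxycycline and in line as well. The count was 2328 without R377C ID replicate 2, 2725 without WT IAA replicate 2 and 3026 without WT IAA replicate 1. Its largest changes were larger than those from WT ID. Snhg17, a host gene of small nucleolar RNAs (chr2:158353700-158361580), had 2025 and 1629 normalized counts in R377C ID, against 148 and 162 in WT IAA (3.54 ± 0.22, limma adjusted p = 1.09e-09). Snx19, a sorting nexin (chr9:30427108-30466733), had 569 and 582, against 45.6 and 54.9 (3.5 ± 0.20, adjusted p = 3.94e-10). Iqgap2, a scaffold of the actin skeleton, had 822 and 811, against 111 and 122 (2.80 ± 0.15, adjusted p = 2.69e-10).

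TPM places these genes beside the untreated cells, whose table was scaled separately. Snx19 was at 6.51 and 6.47 TPM in R377C ID, 3.07 and 3.29 in WT ID, 0.518 and 0.615 in WT IAA, and 6.99 and 8.02 in WT untreated. Snhg17 was at 22.1 and 17.3 in R377C ID, 11.2 and 10.7 in WT ID, 1.61 and 1.74 in WT IAA, and 28.6 and 23.2 in WT untreated. Iqgap2 was at 9.15 and 8.78 in R377C ID, 3.73 and 3.35 in WT ID, 1.23 and 1.33 in WT IAA, and 7.55 and 6.78 in WT untreated. In all 3 genes the R377C level is closer to that of untreated cells than the WT ID level is. The 3 genes were chosen for their rise in R377C ID over WT IAA. That choice favours a high R377C level, so the nearness is no test. Iqgap2 (1.33 ± 0.15, limma adjusted p = 9.58e-06) and Snx19 (1.01 ± 0.20, adjusted p = 0.00262) were called higher in R377C ID than in WT ID. For Snhg17 that call (0.82 ± 0.22, adjusted p = 0.0222) ended without any 1 of the 4 libraries (0.0510 to 0.182) and in TPM (0.0658). Snx19 and Snhg17 were also above the mean of the other 8 mutants, by 1.13 ± 0.15 (adjusted p = 0.000361) and 1.21 ± 0.16 (0.000423), and Snhg17 lost that call without R377C ID replicate 1 (0.0573).

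Rapgef4 and Duox1 behaved in another way. Rapgef4, a cyclic AMP-regulated exchange factor for Rap proteins, was at 1.5 and 1.28 TPM in R377C ID, against 0.845 and 0.761 in WT ID, 0.174 and 0.220 in WT IAA, and 0.0610 and 0.0370 in WT untreated. Duox1, an NADPH oxidase that makes hydrogen peroxide, was at 11.3 and 6.80 in R377C ID, against 7.54 and 7.53 in WT ID, 1.18 and 1.41 in WT IAA, and 0.672 and 0.649 in WT untreated. Both were low in each group without doxycycline and were not called between R377C ID and WT ID (limma, adjusted p = 0.0590 and 0.671).

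Among the decreases, Cybb, the catalytic subunit of the phagocyte NADPH oxidase, had 12.2 and 16.4 normalized counts in R377C ID, against 267 and 205 in WT IAA (-3.96 ± 0.42, limma adjusted p = 1.92e-06). Serpina3m had 62.0 and 39.9, against 534 and 438 (-3.26 ± 0.32, adjusted p = 7.28e-07), and Btla, a lymphocyte inhibitory receptor, had 22.4 and 9.21, against 116 and 104 (-2.84 ± 0.45, adjusted p = 0.000133). In WT untreated these 3 were low, at 0.679 and 0.448 TPM for Cybb, 2.00 and 1.94 for Serpina3m and 0.268 and 0.311 for Btla. The other 2 of the 5 largest decreases, Xlr5b and Xlr5a, were high in WT untreated.

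Of the 34 integrated stress response genes, 30 were called higher in R377C ID than in WT IAA and 0 lower, with a median of 0.89. Against WT ID 0 were called. Over all tested genes 13.0% were called higher and 12.0% lower than in WT IAA. Chac1, a glutathione-degrading enzyme induced by the factor ATF4, had 1133 and 1495 normalized counts in R377C ID, against 254 and 207 in WT IAA (2.50 ± 0.15, limma adjusted p = 8.4e-10). WT ID had 1593 and 1477, so R377C stood with WT ID. R377C ID and WT ID both received doxycycline and WT IAA did not, so doxycycline and the transgene cannot be told apart in these differences from WT IAA. Trib3, another ATF4 target, had 2293 and 2830.1 in R377C ID, against 801 and 695 in WT IAA, with 3121 and 2617 in WT ID. The 16 measured clustered protocadherins, cell-surface proteins whose promoters are a textbook site of CTCF action, gave 9 called higher than in WT IAA and 0 lower. Pcdhga11 had 51.8 and 38.9 in R377C ID, against 8.94 and 4.88 in WT IAA (2.59 ± 0.39, adjusted p = 9.15e-05), with 51.9 and 35.1 in WT ID. Against WT ID none of the 16 was called in limma, and their median, 0.12, turned to -0.04 after quantile normalization.

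**Figure D5:**
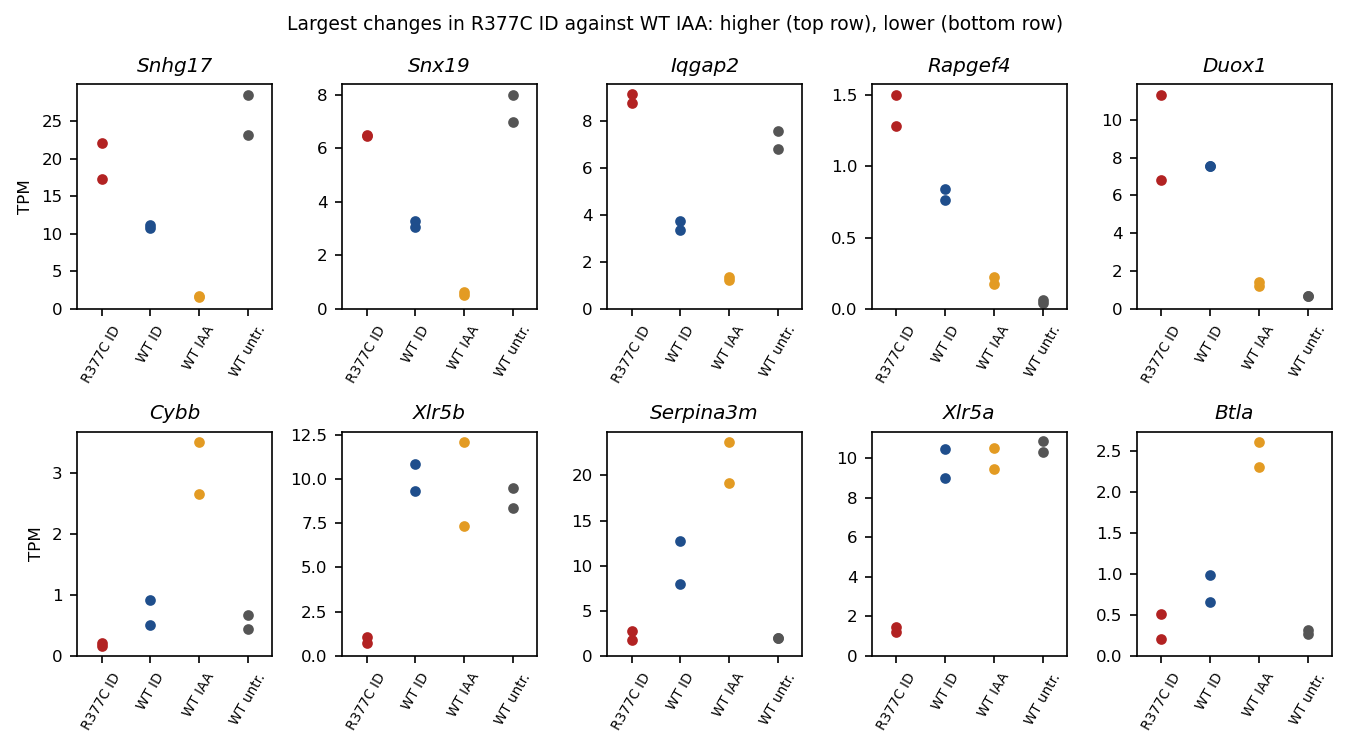
TPM of the 5 largest increases (top) and 5 largest decreases (bottom) of R377C ID against WT IAA, 1 point per library, for R377C ID, WT ID, WT IAA and WT untreated from left to right, each axis from 0. Snx19 is at 6.51 and 6.47 in R377C ID and at 6.99 and 8.02 in untreated cells, while of these 4 groups Duox1 is high in the 2 with doxycycline.

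Genes that differed between WT IAA and WT untreated were followed as well. The WT IAA libraries enter the calls between R377C ID and WT ID through the pooled spread. Of the genes tested, 2505 (13.4%) were at least 2-fold higher in WT IAA than in WT untreated without overlap (mean TPM + 0.1), and 623 (3.33%) at least 2-fold lower. Of the 2505 genes, 291 (11.6%) were called higher in R377C ID than in WT ID and 73 (2.91%) lower, beside 4.67% and 3.43% of all genes. Their median TPM over untreated cells was 1.34 on the log2 scale in R377C ID, 1.16 in WT ID and 1.51 in WT IAA, with 0.21, 0.19 and 0.19 over all genes. WT ID, with the wild-type transgene on, also stood above untreated cells. The untreated libraries chose the genes and are the denominator of these medians, so the choice itself favours a rise in every group. They were also scaled separately. Of the 623 genes lower in WT IAA than in WT untreated, 70 (11.2%) were called higher and 26 (4.17%) lower. Their median over untreated cells was -0.73 in R377C ID, -0.90 in WT ID and -1.41 in WT IAA. Here the choice favours a fall in every group. The called genes of both sets were more often higher than lower in R377C, whichever way WT IAA differed from WT untreated. Over all genes too, more were called higher (4.67%) than lower (3.43%).

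The core of the CTCF motif was searched in RefSeq promoters (GRCm38.p6, 250 bases before to 50 after the start) as AGGGGGCGC or its reverse complement GCGCCCCCT. It was present in 29 of 679 promoters (4.27%) of genes called higher in R377C ID than in WT ID, in 8 of 467 (1.71%) of those called lower, and in 315 of 12170 (2.59%) of all tested genes with a promoter in the table. The shorter form AGGGGGC, which the longer contains, was in 21.1% of the promoters of genes called higher, 18.8% of those called lower and 18.6% of all. A match describes the letters of the window and shows no binding. Of the 43 genes with the largest changes against WT ID, WT IAA or the other mutants, 34 had a promoter in the table and 2 hold a match, and they are printed to show its place, with AGGGGGC or its reverse complement in capitals. The Pear1 stretch (chr3:87769117-87769183, minus strand) holds the longer form, starting at -200 from the gene start. The Hhip stretch (chr8:80058094-80058160, minus strand) holds only the shorter form, on the opposite strand, at -122.
Pear1: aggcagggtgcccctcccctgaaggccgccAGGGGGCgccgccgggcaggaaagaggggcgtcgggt
Hhip: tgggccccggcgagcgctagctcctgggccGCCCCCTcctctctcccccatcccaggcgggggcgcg
Pear1 was higher in R377C ID (172 and 205) than in WT ID (50.5 and 70.2) by 1.64 ± 0.22 (limma, adjusted p = 0.000102), and Hhip by 1.99 ± 0.27.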

How the data were processed

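Total RNA-seq of 24 mouse embryonic stem cell libraries, 2 in each of 12 groups, was analysed from tables deposited by the authors. Per the labels' protocols, ribosomal RNA was removed and a stranded kit was used. Trim Galore, STAR, DESeq2 and the mm10 build are named in the submitters' processing notes. How reads were counted, on which annotation and whether by strand is not given in the sources used here, so a gene with an antisense neighbour may hold its reads. The deposited signal is a normalized count, the reads of a gene over a size factor, in a table of 22 libraries and a separately scaled table of the untreated pair. The deposited TPM tables follow the same split, so only TPM was compared across them. Dividing by the smallest step of a library gave whole reads for 100% of values, within 0.001 normalized counts. Depth was 27.8 to 77.1 M reads on genes. The tables held 0 columns from other series. Of 55291 symbols, 53186 matched 1 GENCODE M21 entry and took its mm10 coordinates.

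limma 3.58.1 (R 4.3.3) was fitted with a trended prior to log2(normalized count + 1), 1 coefficient for each of 11 groups, over the 18713 genes that averaged at least 10 in those 22 libraries. The pooled residual degrees of freedom were 11. Two-sided p-values were adjusted over all tested genes of a comparison by Benjamini-Hochberg and called under 0.05; the fit was tested on simulated data. Alternatives were pseudocounts 0.5 and 4, no filter, a mean of at least 50, TPM (+ 0.1), quantile normalization, the compared libraries only, the replicate number as a block, each library left out, and counting tests on recovered reads with edgeR 4.0.16 (1618 genes called between R377C ID and WT ID) and DESeq2 1.42.0 (1775).

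Genes named singly were the 15 largest increases and 15 largest decreases against WT ID (called, mean of at least 50, no overlap of the groups, no model or clone name), the up to 6 each way called both against the other 8 mutants and against WT ID and outside their range, the 5 each way against WT IAA, the 4 members of each list with the smallest p, and Ctcf, Pou5f1, Sox2 and Nanog. Genes of distal chromosome 17 and a few list members beyond that rule were chosen after their values were seen. The groups compared and the gene lists were chosen with earlier results of these data known. Of 843 listed genes, 835 were found in the tables (2 by an older symbol) and 712 measured. Promoter sequences are from RefSeq.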

Additional observations from a re-analysis of the deposited data

Results flagged for a closer look

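Peg10 differed between the 2 substitutions of the same arginine. It was higher than WT ID in R377C ID by 1.78 on the log2 scale, at 3716 and 1990.3 normalized counts, and lower than WT ID in R377H ID by -1.06, at 441 and 328 counts. The difference between R377C and R377H, 2.84 ± 0.29, passed its own test (limma, adjusted p = 1.21e-06). WT ID had 920.2 and 681 counts, so every R377C library lies above and every R377H library below both. Each substitution is in its own line, and line and substitution cannot be told apart.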

How the results depend on the processing

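With 1 library left out, genes called against WT ID numbered 582 to 905, against WT IAA 2328 to 3675, against R377H 1856 to 2655 and against the other 8 mutants 37 to 43. In the comparison with the other 8 mutants, only the R377C ID libraries were left out. Its count was 141 in TPM, 186 with the compared libraries only and 669 with DESeq2. The cause was not tested. Ctcf was called higher than in WT ID after quantile normalization (0.23, adjusted p = 0.0167) and with DESeq2 (0.18, adjusted p = 0.0363), and its difference ran from 0.14 to 0.20 with 1 library left out. The median of distal chromosome 17 moved to 0.90 in TPM. The shorter motif was found in 21.06% and 18.84% of promoters of genes called higher and lower. With distal chromosome 17 left out (chosen after seeing the data), 1402 (WT ID), 4585 (WT IAA), 305 (other mutants) and 3534 (R377H) genes were called. Deviations of same-numbered R377C ID and WT ID libraries correlated at -0.07, and those of all pairs of groups at -0.25 to 0.38. The highest value, 0.38, was between R377C ID and 1 of the other mutants. With the replicate block 1553, 4673, 294 and 3564 genes were called. Of 1572 values of 114 single-gene results under the alternatives, 1363 kept the direction and the side of the threshold, 209 lost the call and 0 reversed. Of 406 counts over the 29 lists with a call, 115 moved by more than 1.5 times. Values of genes with few counts, such as the 2-cell-like list, are limited by depth.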
